A study of Rattus norvegicus with 21 samples.

Results

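Amino acid transporter genes were followed in pituitary adenomas of MENX rats. These genes encode membrane proteins that carry amino acids between the blood, the cell and its compartments. They were chosen by name alone, as the genes with a single symbol beginning with Slc1a, Slc3a, Slc6a, Slc7a, Slc36a, Slc38a or Slc43a in the platform's probe annotation. The rule found 55 genes among 14506 genes with 1 symbol, with 1 probe set each. A few of the 55 do not carry amino acids. Slc6a2, Slc6a3 and Slc6a4 carry monoamines, Slc6a8 carries creatine, Slc43a3 carries nucleobases in human and mouse cells, and Slc7a6os is the opposite-strand neighbour of Slc7a6 and no carrier.

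RNA of 16 adenoma lesions from rats homozygous for the MENX mutation of Cdkn1b, the gene of the cell cycle inhibitor p27, was compared with RNA of 5 pituitaries from rats with wild-type Cdkn1b. The labels call the mutants homozygous for p27Kip1 (Cdknb1), give the strain of both groups as Sprague–Dawley white eye/Wistar–Kyoto, and state housing free of specific pathogens. Lesions with the same sample number were read as lesions of 1 rat and averaged, which left 9 adenoma rats and 5 wild-type rats. The study's text counts more mutant rats than the lesions have sample numbers, so that some lesions averaged here may come from different rats. With the lesions as independent samples, 9 of the genes followed here were higher and 12 lower. With the number as a random block these counts were 8 and 9, beside 6 and 9 after averaging. Over all probe sets the counts were 3562 and 4142 with independent lesions and 3109 and 3230 with the random block. After averaging they were 2479 and 2648. The adenoma rats were 7 (rat 4), 8 (rat 6), 10 (rats 2 and 3), 11 (rat 1) and 12 months old (rats 5, 7, 8 and 9), and the wild-type rats were all 6 months old. These ages are those of the labels, while the study's text places the mutants at the young end of this range, and every result on age below rests on the labels. Rats 2, 3 and 5 of the adenoma group and rats 2, 3 and 4 of the wild-type group were male. Since all adenoma rats were older than all wild-type rats, the effects of genotype and age cannot be told apart. The adenomas form spontaneously in the anterior lobe, derive mainly from gonadotrophs, and were dissected by eye, so that other cells of the gland were included.

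The lesions and pituitaries had 1 Affymetrix array each (Rat Gene ST), and expression is given as the log2 value that the authors obtained with RMA, a method that corrects the background, sets the distributions of arrays alike and summarises the probes of a gene. A difference of 1 is a fold of 2. Values of different genes come from different probes, so that the level of 1 gene is not read as above that of another. The 29214 probe sets ran between 2.01 and 14.09, and the median of an array between 6.36 and 6.53. The mRNA of Cdkn1b, which does not test for the mutation, was at 8.99 to 9.55 in adenomas and at 8.65 to 9.11 in wild-type pituitaries (log2 fold change 0.33, limma adjusted p = 0.0324), a call that was lost without adenoma rat 3 or 7 or wild-type rat 2 or 4 (log2 fold changes from 0.26 to 0.38 without 1 rat). Of 5 gonadotroph markers 2 were higher in adenomas, Cga and Gnrhr (log2 fold changes of 0.91 and 1.40), and 2 lower, Fshb and Lhb (-2.38 and -2.24). Fshb lost its call without wild-type rat 3 (from -2.73 to -2.05 without 1 rat). Over all probe sets 8.49% were called as higher and 9.06% as lower. The mean level of the 5 markers was 9.17 to 10.14 in adenoma rats and 9.46 to 10.86 in wild-type rats.

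Several of these carriers work as pairs. In heteromeric transporters a light chain of the Slc7 family moves the amino acid, and a heavy chain of the Slc3 family brings it to the plasma membrane. Slc7a5 (LAT1) with Slc3a2 (the heavy chain of CD98) takes up leucine and other large neutral amino acids in exchange for an intracellular amino acid such as glutamine, and leucine inside the cell activates the growth kinase complex mTORC1. Carriers of the Slc38 family take up glutamine and small neutral amino acids with sodium. Slc36a1 of the Slc36 family moves amino acids together with protons, and the excitatory carriers of the Slc1 family take up glutamate. When amino acids are short, the transcription factor ATF4 activates many of these genes through composite elements read together with C/EBP proteins.

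Promoters of 3 genes that were higher in adenomas are shown, because their products are the partners of 1 exchanger, or supply it with glutamine, and each holds a short element of a known factor. They are taken from the RefSeq promoter table of build GRCr8, from 250 bases before to 50 bases after the start of the gene, and read 5′ to 3′ on the strand of the gene. Capitals mark an E-box (CACGTG) in Slc7a5, an SF-1 element (CAAGGTCA, SF-1 being a factor that defines gonadotrophs) in Slc3a2, and a C/EBP-ATF response element (TGATGCAA) in Slc38a1.
Slc7a5, chr19:66872363-66872662, minus strand: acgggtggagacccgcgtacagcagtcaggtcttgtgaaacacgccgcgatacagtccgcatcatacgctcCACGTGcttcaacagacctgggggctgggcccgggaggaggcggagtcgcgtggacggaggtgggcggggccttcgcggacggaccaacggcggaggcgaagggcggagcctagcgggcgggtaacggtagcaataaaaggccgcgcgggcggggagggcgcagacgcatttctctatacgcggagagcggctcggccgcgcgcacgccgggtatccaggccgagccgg
Slc3a2, chr1:215039621-215039920, minus strand: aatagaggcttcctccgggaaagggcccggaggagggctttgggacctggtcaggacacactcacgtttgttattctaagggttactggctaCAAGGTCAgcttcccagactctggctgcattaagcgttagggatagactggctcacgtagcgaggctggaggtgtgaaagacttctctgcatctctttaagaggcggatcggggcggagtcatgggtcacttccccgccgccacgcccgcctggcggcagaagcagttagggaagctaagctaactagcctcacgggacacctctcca
Slc38a1, chr7:129681352-129681651, minus strand: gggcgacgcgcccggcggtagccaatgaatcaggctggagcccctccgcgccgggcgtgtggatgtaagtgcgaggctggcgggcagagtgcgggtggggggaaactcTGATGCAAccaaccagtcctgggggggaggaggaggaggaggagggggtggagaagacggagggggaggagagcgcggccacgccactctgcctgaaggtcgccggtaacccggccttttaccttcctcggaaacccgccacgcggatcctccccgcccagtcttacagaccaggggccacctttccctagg
The table held promoters of 43 of the 55 genes, 47 in all because a few genes have several. The E-box CACGTG was found in 7 of the 47 promoters (14.9%), against 6.42% of 33469 promoters of the same length in the table. Apart from Slc7a5, the genes with it (Slc1a4, Slc1a6, Slc1a7, Slc36a1, Slc38a7 and Slc43a1) were not called between adenomas and wild-type pituitaries. The pattern TGATGNAA of the C/EBP-ATF element, on either strand, was found in 3 (6.38%), against 3.98% of all promoters. The other carriers with it, Slc1a4 and Slc7a1, were not called. The SF-1 element, CAAGGTCA or CAAGGCCA on either strand, was found in 3 (6.38%), against 3.68% of all. The other carriers with it, Slc1a6 and Slc6a11, were not called. The antioxidant response element TGACNNNGC, which NRF2 reads, was found in 8 (17%), against 12.1% of all. Among them were both heavy chains, Slc3a2 and Slc3a1, the only called genes with this element. In Slc6a11 it overlapped an SF-1 element. These matches describe the letters of the window and do not show that a factor was bound.

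In the adenomas 15 of the 55 genes were called at an adjusted p under 0.05 (27.3%), against 17.5% of all probe sets on the array. All probe sets include 13581 with no symbol, unlike the 55 genes. The 6 that were higher in adenomas (10.9%, against 8.49% of all probe sets) were Slc7a5, Slc38a5, Slc43a3, Slc36a4, Slc3a2 and Slc38a1. The 9 that were lower (16.4%, against 9.06%) were Slc1a2, Slc1a3, Slc1a1, Slc6a15, Slc7a8, Slc3a1, Slc38a3, Slc7a10 and Slc6a17. A fold over 2 besides the adjusted p was reached by 3 higher genes (5.45%, against 1.43% of all) and by 1 lower gene (1.82%, against 1.05%). In 7 genes (12.7%, against 4.82% of all probe sets) the adenoma values did not overlap the wild-type values, 3 of them above (5.45%, against 2.66%) and 4 below (7.27%, against 2.16%). The median log2 fold change was -0.08 over the 55 genes and -0.03 over all probe sets, and the median of its size was 0.26 and 0.16. Test and adjustment are those of limma with Benjamini-Hochberg over all 29214 probe sets. Per role, 3 of the 5 glutamate carriers of the Slc1 family were lower, both heavy chains were called in opposite directions, 1 of 10 light chains was higher and 2 were lower, and of the 8 measured Slc38 carriers 2 were higher and 1 was lower. No member was called among the 4 cationic amino acid transporters of Slc7, the 3 carriers of GABA or taurine, the 4 of glycine or proline, the 4 of monoamines or creatine, and the 2 neutral exchangers of Slc1. The mean over the 14 rats was under 6 for 23 of the 55 genes, below the median of every array. Of these, 1 was higher, 3 were lower and 19 were not called. Among the other called genes, Slc1a2, Slc7a10 and Slc6a15 had adenoma means under 6, at 5.73, 5.96 and 5.84.

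**Figure D1:**
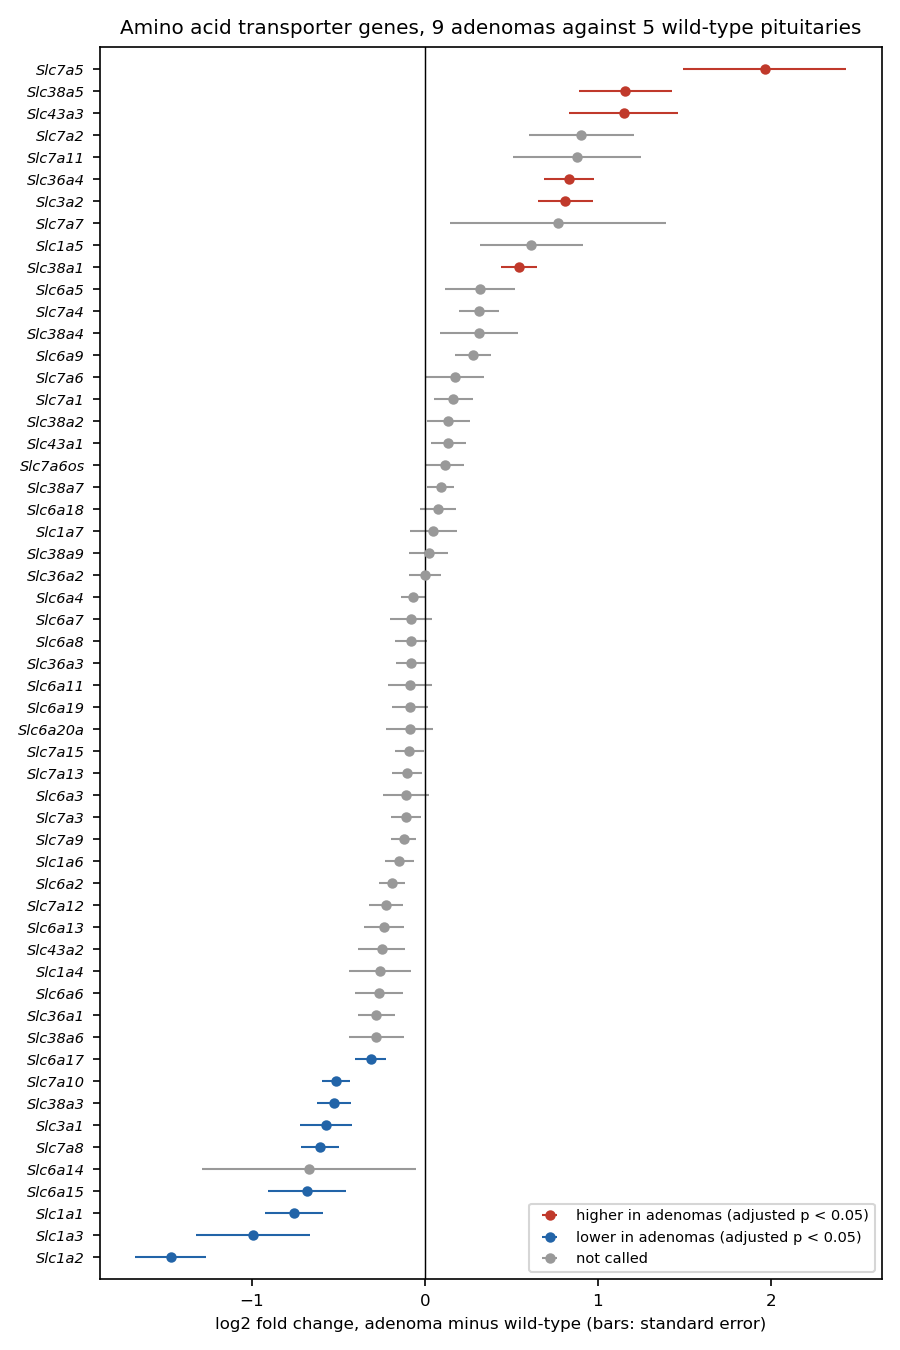
Log2 fold change of each of the 55 genes, adenoma minus wild-type, with its standard error as the bar, ordered by size; red points are called higher, blue points called lower and grey points not called. Slc7a5 stands at the upper end with 1.97 and Slc1a2 at the lower end with -1.47, and the 40 uncalled genes run between -0.67 and 0.91.

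The large neutral amino acid exchanger was higher in both of its chains. The light chain Slc7a5 was at 8.51 in the lowest adenoma rat, 10.67 in the median and 11.35 in the highest, against 7.70, 9.35, 8.35, 8.53 and 7.48 in wild-type rats 1 to 5. The adenoma mean was 10.25 ± 1.04 (SD, n = 9) and the wild-type mean 8.28 ± 0.74 (SD, n = 5), a fold of 3.91 (log2 fold change 1.97, standard error 0.47, limma adjusted p = 0.0105). The groups overlapped, since 7 of 9 adenoma rats lay above all wild-type rats and the rats of 7 and 8 months did not. The heavy chain Slc3a2 was at 11.22 in the lowest adenoma rat, 11.63 in the median and 12.02 in the highest, against 11.02, 11.22, 10.50, 10.39 and 10.78 in the wild-type rats. Here 8 of 9 adenoma rats lay above all wild-type rats, and the adenoma rat of 7 months fell at the level of wild-type rat 2. Its fold was 1.75 (log2 fold change 0.81, standard error 0.16, limma adjusted p = 0.0033). The lesions of 1 rat lay close together in both chains, with a largest gap of 0.92 in Slc7a5, over an adenoma range of 2.84, and of 0.26 in Slc3a2, over a range of 0.80. The first of these gaps came from adenoma rat 3, whose lesions had Slc7a5 at 9.25, 9.73 and 10.17.

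The other heavy chain, Slc3a1, which with Slc7a9 reabsorbs cystine and basic amino acids in the kidney, was lower. Its adenoma values were 4.67 at the lowest, 4.89 at the median and 5.28 at the highest, against 4.86, 5.96, 5.73, 5.30 and 5.59 in the wild-type rats. Wild-type rat 1 lay among the adenomas, and the values of both groups lay low on the array's scale. It was 1.49-fold lower in adenomas (log2 fold change -0.57, standard error 0.15, limma adjusted p = 0.0164), and the call was lost without wild-type rat 3 (log2 fold change -0.51, adjusted p = 0.0512).

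Among the light chains, 2 were lower in adenomas without overlap. Slc7a8 (LAT2), which also pairs with Slc3a2 and exchanges large and small neutral amino acids, was at 9.18 in the lowest adenoma rat, 9.48 in the median and 9.76 in the highest, against 9.78, 9.96, 10.08, 10.21 and 10.34 in the wild-type rats. All 9 adenoma rats lay below all 5 wild-type rats, with a gap of 0.012 between the nearest values, and the log2 fold change was -0.61 (standard error 0.11, limma adjusted p = 0.00203). Slc7a10 (Asc-1), a carrier of small neutral amino acids including D-serine, was at 5.71 in the lowest adenoma rat, 5.99 in the median and 6.21 in the highest, against 6.37, 6.50, 6.41, 6.45 and 6.63 in the wild-type rats. These values did not overlap either (log2 fold change -0.51, standard error 0.080, limma adjusted p = 0.000713). The chains that share Slc3a2 thus moved in different directions, Slc7a5 up and Slc7a8 and Slc7a10 down.

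Of the remaining light chains, none was called. Slc7a11 (xCT), which imports cystine for glutathione synthesis in exchange for glutamate, was at 5.80 in the lowest adenoma rat, 6.58 in the median and 8.38 in the highest, against 5.75, 6.46, 5.97, 5.87 and 5.58 in the wild-type rats. Adenoma rats 1, 3 and 5 stood out at 8.38, 7.87 and 7.28, while 4 of 9 lay within the wild-type range (log2 fold change 0.88, standard error 0.37, limma adjusted p = 0.113). Slc7a7 (y+LAT1), which exports basic amino acids and is also made by macrophages, varied most widely among the adenomas, by 3.90. It was at 6.20 and 7.00 in the male adenoma rats 2 and 5, and between 8.38 and 10.10 in the other 7, against 9.73, 7.25, 7.89, 7.35 and 8.13 in the wild-type rats. The lesions of 1 rat differed by at most 0.64, so that the low values recurred in both lesions of rat 2 (6.46 and 5.94) and in all 3 of rat 5 (6.71, 7.08 and 7.21). The log2 fold change was 0.77 with a standard error of 0.62 (limma adjusted p = 0.420). Among samples with the number prefix 09 the means of Slc7a7 were 9.77 in adenomas and 7.79 in wild-type pituitaries (log2 fold change 1.98, adjusted p = 0.00331). With the prefix 08 they were 8.10 in adenomas and 8.49 in wild-type pituitaries. All adenoma rats of prefix 09 were female.

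Among the sodium-coupled Slc38 carriers, Slc38a5 and Slc38a1 were higher and Slc38a3 was lower, each without overlap between averaged rats. Slc38a5 and Slc38a3 were among the genes with a mean under 6. Slc38a1 (SNAT1), a glutamine carrier of many dividing cells, was at 9.47 in the lowest adenoma rat, 9.83 in the median and 10.06 in the highest, against 9.38, 9.28, 9.21, 9.05 and 9.20 in the wild-type rats. Its log2 fold change was 0.54 (standard error 0.11, limma adjusted p = 0.00312). A single lesion of adenoma rat 3 was at 8.79, below all wild-type rats, beside lesions of that rat at 9.85 and 9.82. Slc38a5 (SNAT5), which carries glutamine and histidine in exchange for protons, was at 5.66 in the lowest adenoma rat, 5.80 in the median and 7.50 in the highest, against 5.03, 4.95, 4.76, 4.90 and 5.26 in the wild-type rats. The adenoma values were uneven, with rats 7 and 5 at 7.50 and 6.81 and the other 7 between 5.66 and 6.30 (log2 fold change 1.16, standard error 0.27, limma adjusted p = 0.00876). They were also uneven within rats, at 5.73, 7.02 and 7.69 in the 3 lesions of rat 5 and at 6.96 and 5.64 in those of rat 1. Slc38a3 (SNAT3), the glutamine carrier of liver, kidney and astrocytes, was at 5.54 in the lowest adenoma rat, 5.59 in the median and 5.87 in the highest, against 5.88, 6.27, 6.24, 6.52 and 5.96 in the wild-type rats. The nearest values, those of adenoma rat 2 and wild-type rat 1, differed by 0.0061, and the log2 fold change was -0.52 (standard error 0.098, limma adjusted p = 0.00234). The lesions of adenoma rat 2 were at 5.96 and 5.78, and the first of these lay above wild-type rats 1 and 5. Slc38a2 (SNAT2), the member that cultured cells raise when amino acids are withdrawn, averaged 10.59 ± 0.18 in adenomas and 10.45 ± 0.31 in wild-type pituitaries (SD, n = 9 and 5) and was not called (log2 fold change 0.14, limma adjusted p = 0.484). Slc38a4, a carrier of small neutral and cationic amino acids, averaged 9.85 ± 0.47 in adenomas and 9.54 ± 0.41 in wild-type pituitaries (log2 fold change 0.31, limma adjusted p = 0.363).

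Slc36a4 (PAT4), a high-affinity carrier of proline and tryptophan, was higher without overlap. It was at 9.21 in the lowest adenoma rat, 9.49 in the median and 9.85 in the highest, against 8.95, 8.88, 8.46, 8.16 and 9.00 in the wild-type rats. The spread among adenoma rats (SD 0.22) was smaller than among wild-type rats (SD 0.36), and the log2 fold change was 0.83 (standard error 0.14, limma adjusted p = 0.00144). Slc36a1 (PAT1), which releases amino acids from lysosomes, averaged 7.46 ± 0.12 in adenomas and 7.74 ± 0.28 in wild-type pituitaries and was not called (log2 fold change -0.28, limma adjusted p = 0.0792), but was called as lower without wild-type rat 1 (-0.39, adjusted p = 0.0064), and in 3 further alternatives, among them the lesions as independent samples (adjusted p = 0.0459). In the Slc43 family the nucleobase carrier Slc43a3 was the called member. It was at 6.31 in the lowest adenoma rat, 7.84 in the median and 8.50 in the highest, against 6.37, 6.74, 6.69, 6.26 and 6.21 in the wild-type rats. The adenoma rat of 7 months lay within the wild-type range and the other 8 above it (log2 fold change 1.15, standard error 0.32, limma adjusted p = 0.0213). The call was lost without wild-type rat 4 or 5 (log2 fold changes of 1.10 and 1.09, adjusted p = 0.0595 and 0.0521), and the 3 lesions of adenoma rat 3 differed by 1.72, at 6.40, 6.71 and 8.11. Slc43a2 (LAT4), which lets branched-chain amino acids leave the cell, averaged 8.71 ± 0.19 in adenomas and 8.96 ± 0.35 in wild-type pituitaries and was not called (log2 fold change -0.25, limma adjusted p = 0.212).

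**Figure D2:**
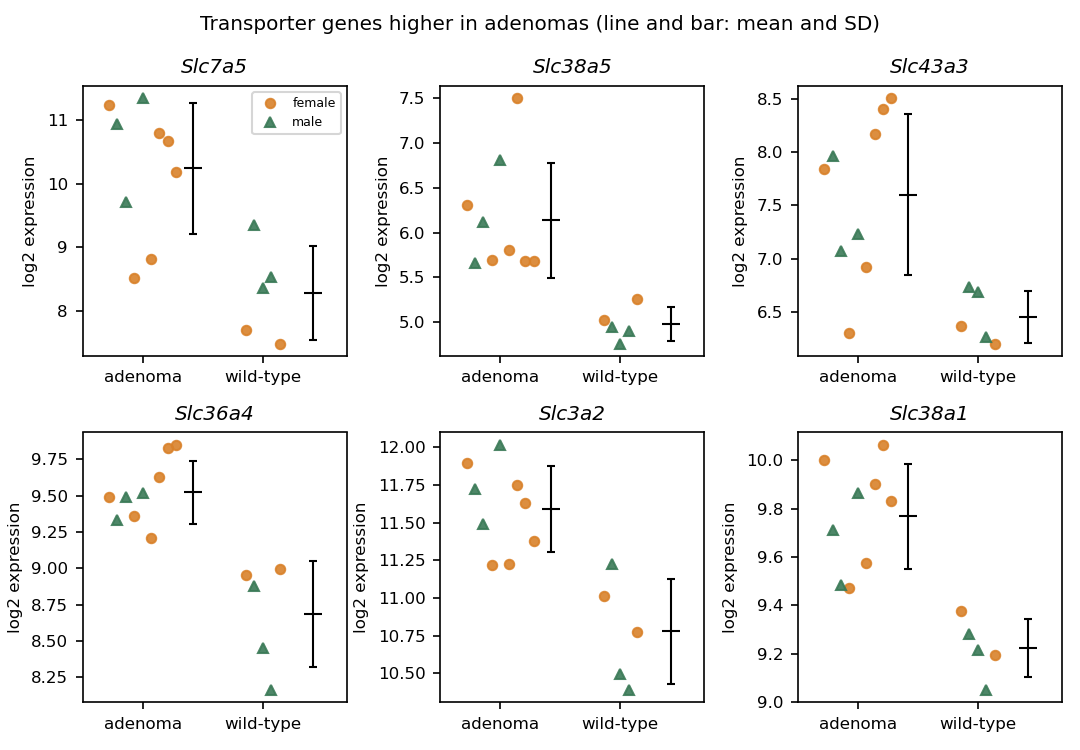
Log2 expression of the 6 genes higher in adenomas, 1 point per rat (adenoma left, wild-type right; circles female, triangles male), with the mean and SD beside each group. Slc38a5, Slc36a4 and Slc38a1 show no overlap, while 2 adenoma rats of Slc7a5, at 8.51 and 8.81, lie in the wild-type range.

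Of the 5 glutamate carriers of the Slc1 family 3 were lower. Slc1a2 (GLT-1), the main glutamate carrier of astrocytes, was at 5.51 in the lowest adenoma rat, 5.65 in the median and 6.37 in the highest, against 6.52, 7.62, 7.92, 7.28 and 6.66 in the wild-type rats. The groups did not overlap, and 8 of the 9 adenoma values lay between 5.51 and 5.81. The adenoma mean of 5.73 lay below the median of every array. It was 2.77-fold lower in adenomas (log2 fold change -1.47, standard error 0.21, limma adjusted p = 0.000385). Slc1a1 (EAAC1), the glutamate and cysteine carrier of neurons and epithelia, was at 5.48 in the lowest adenoma rat, 5.74 in the median and 5.88 in the highest, against 5.83, 7.03, 6.51, 6.99 and 6.07 in the wild-type rats. The female wild-type rat 1, at 5.83, lay within the adenoma range, which spanned 0.40 (log2 fold change -0.76, standard error 0.17, limma adjusted p = 0.00681). Slc1a3 (GLAST), the glutamate carrier of radial glia and astrocytes, was at 6.51 in the lowest adenoma rat, 7.30 in the median and 8.27 in the highest, against 9.47, 8.32, 7.66, 7.69 and 8.81 in the wild-type rats. The adenoma rats of 7 and 8 months, at 8.18 and 8.27, lay within the wild-type range, and the other 7 lay below it. Its call was close to the threshold (log2 fold change -0.99, standard error 0.33, limma adjusted p = 0.0486) and was lost without any 1 of adenoma rats 1, 2, 3, 5, 7, 8 and 9 or of wild-type rats 1, 2 and 5 (log2 fold changes from -1.18 to -0.72 over all rats left out in turn, adjusted p up to 0.118). The call of Slc1a3 was also lost in 6 of 16 other settings, among them arrays centred on their median, array weights and each prefix alone. The neutral exchanger Slc1a5 (ASCT2), a glutamine carrier, averaged 8.26 ± 0.45 in adenomas and 7.64 ± 0.82 in wild-type pituitaries and was not called (log2 fold change 0.62, limma adjusted p = 0.167).

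In the Slc6 family, 2 carriers of neutral amino acids were lower. Slc6a17 (NTT4), which loads neutral amino acids into synaptic vesicles, was at 8.44 in the lowest adenoma rat, 8.69 in the median and 8.80 in the highest, against 8.79, 8.84, 8.79, 9.19 and 9.04 in the wild-type rats. Adenoma rat 1 touched the lowest wild-type values (log2 fold change -0.31, standard error 0.089, limma adjusted p = 0.0259), and the call was lost without wild-type rat 4 or 5 (log2 fold changes of -0.25 and -0.28, adjusted p = 0.0844 and 0.0658). Slc6a15 (B0AT2), a carrier of branched-chain amino acids and proline in neurons, was at 5.48 in the lowest adenoma rat, 5.85 in the median and 6.12 in the highest, against 6.02, 7.44, 6.73, 6.78 and 5.66 in the wild-type rats. The male wild-type rats had 7.44, 6.73 and 6.78 and the females, at 6.02 and 5.66, lay within the adenoma range. Its log2 fold change was -0.68 (standard error 0.22, limma adjusted p = 0.0482). The call was lost without any 1 of the 9 adenoma rats or of wild-type rats 2, 3 and 4. Without wild-type rat 2 the log2 fold change was -0.45, and the adjusted p without 1 rat rose up to 0.126. The call was also lost in 9 of 16 other settings, among them sex as a covariate, quantile normalization and prefix 09 alone. Of the uncalled members, the taurine carrier Slc6a6 averaged 9.63 ± 0.30 in adenomas and 9.90 ± 0.18 in wild-type pituitaries (log2 fold change -0.26, limma adjusted p = 0.200), and the glycine carrier Slc6a9 averaged 6.42 ± 0.20 in adenomas and 6.14 ± 0.14 in wild-type pituitaries (log2 fold change 0.28, limma adjusted p = 0.0725). Slc6a9 was called as higher in 4 alternatives, namely the sample number as a random block (0.30, adjusted p = 0.0267), lesions as independent samples (0.33, adjusted p = 0.0193), the methods' t-test (adjusted p = 0.023) and quantile normalization (0.33, adjusted p = 0.0425). Slc6a14, a broad carrier of neutral and cationic amino acids, spread over 3.30 among adenoma rats and 3.16 among wild-type rats and gave a log2 fold change of -0.67 with a standard error of 0.62 (limma adjusted p = 0.487).

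**Figure D3:**
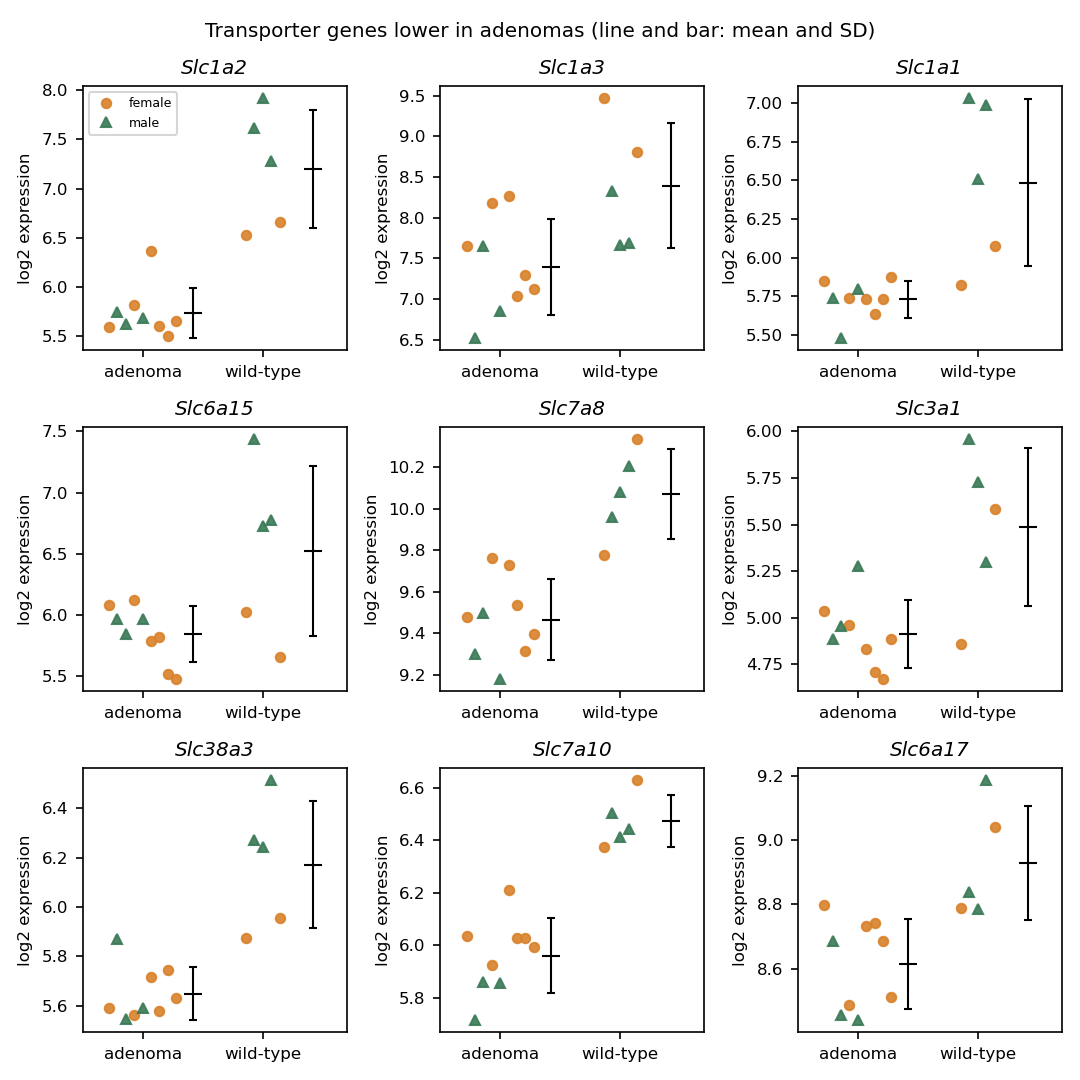
Log2 expression of the 9 genes lower in adenomas, 1 point per rat (adenoma left, wild-type right; circles female, triangles male), with the mean and SD beside each group. Slc1a2, Slc7a8, Slc38a3 and Slc7a10 show no overlap, and in Slc1a1 and Slc6a15 the female wild-type rats lie low, at 5.83 and 6.07 and at 6.02 and 5.66.

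Slc7a2 (CAT2), which imports arginine, lysine and ornithine, missed the threshold by little. It was at 5.78 in the lowest adenoma rat, 7.21 in the median and 7.68 in the highest, against 5.88, 6.11, 5.97, 6.02 and 5.78 in the wild-type rats. The adenoma rats of 7 and 8 months, at 5.88 and 5.78, lay at the wild-type level, and the other 7 were above all wild-type rats. The log2 fold change over 9 adenoma rats was 0.91 (standard error 0.30, limma adjusted p = 0.0504). With the adenomas of 10 to 12 months alone, a comparison added after the data were seen, it was 1.20 (adjusted p = 0.00204). Of the other alternatives 8 called it as higher, among them the lesions as independent samples (0.95, adjusted p = 0.0204), the sample number as a random block (0.93, adjusted p = 0.0235), quantile normalization (0.96, adjusted p = 0.0433) and the prefix of the sample number as a block (0.93, adjusted p = 0.048). It also passed without adenoma rat 3, 4 or 6 (0.99, 1.03 and 1.04). Slc7a4, a relative of the cationic carriers with no settled function, averaged 8.69 ± 0.18 in adenomas and 8.37 ± 0.27 in wild-type pituitaries (log2 fold change 0.31, limma adjusted p = 0.0703) and was called without adenoma rat 9 or wild-type rat 1 (0.36 and 0.39).

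The adenoma rats spanned 7 to 12 months, and a slope of the log2 value on age was fitted over these 9 rats. No member was called at an adjusted p under 0.05, and 1 of 29214 probe sets was (0.00342%), while at an unadjusted p under 0.05 there were 12 members (21.8%) and 11.8% of all probe sets. Slc7a5 had a slope of 0.47 per month (limma adjusted p = 0.137), with a mean of 8.66 in the rats of 7 and 8 months and of 10.70 in those of 10 to 12 months. The corresponding means were 5.83 and 7.15 for Slc7a2 (slope 0.35, adjusted p = 0.132), 6.62 and 7.88 for Slc43a3 (slope 0.33, adjusted p = 0.160) and 7.71 and 8.18 for Slc7a6, the y+LAT2 light chain (slope 0.14, adjusted p = 0.132). Slc1a3 ran the other way, with means of 8.22 and 7.16 (slope -0.23, adjusted p = 0.277). Slc3a2, Slc38a1 and Slc36a4 had slopes of 0.11, 0.095 and 0.090, and Slc7a8 and Slc1a2 of -0.081 and -0.093. Only 2 rats were younger than 10 months. Within the rats of 10 to 12 months the slope of Slc7a5 was 0.17 and that of Slc1a3 -0.03, and no member was called there (adjusted p of at least 0.847). Without adenoma rat 2, which had the lowest Slc1a3 value, the slopes of Slc1a3 (-0.24) and Slc7a2 (0.36) passed the threshold (adjusted p = 0.0435 each), and 58 of the 29214 probe sets did so in that setting.

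**Figure D4:**
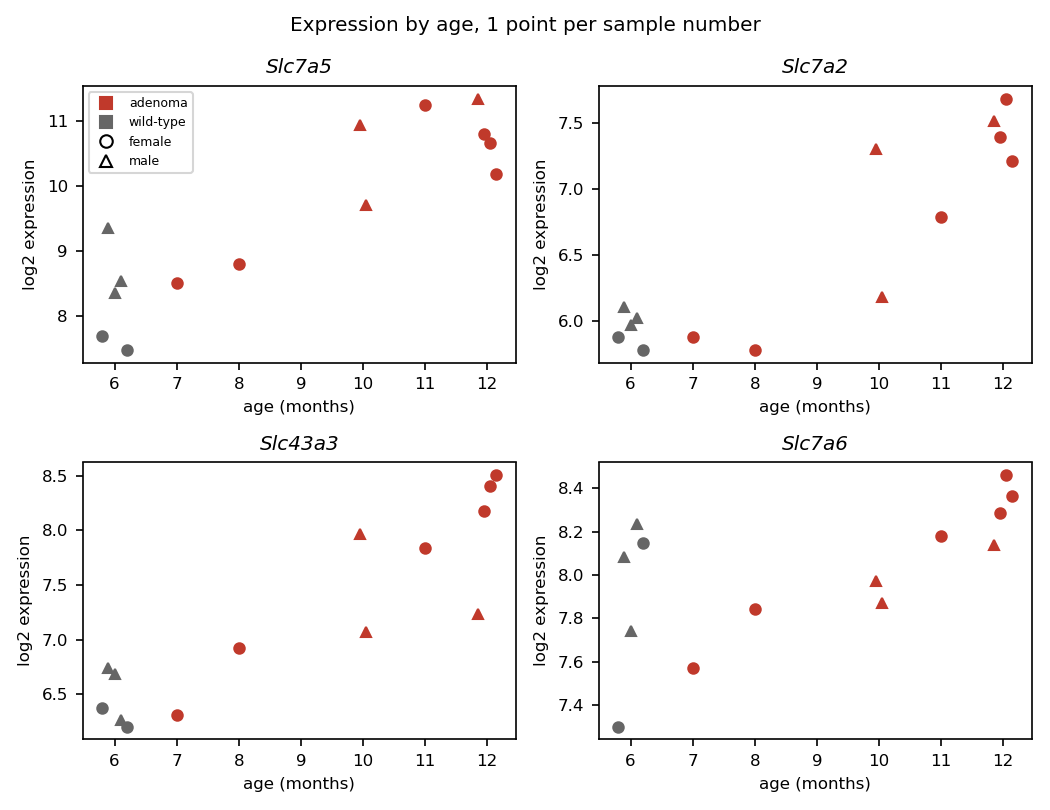
Log2 expression of Slc7a5, Slc7a2, Slc43a3 and Slc7a6 against age in months, 1 point per rat (red adenoma, grey wild-type; circles female, triangles male; points of the same age are set slightly apart). The adenoma rats of 7 and 8 months lie below those of 10 to 12 months in all 4 genes, as with 8.51 and 8.81 against 9.72 to 11.35 in Slc7a5.

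Sex entered both groups, and the difference between the sexes in the adenoma effect was tested as an interaction. No member (0%) and none of the 29214 probe sets (0%) passed the adjusted threshold in limma, and at an unadjusted p under 0.05 there were 5 members (9.09%) against 6.78% of all probe sets. For Slc1a1 the log2 fold change was -1.17 in males and -0.19 in females (interaction adjusted p = 0.259). For Slc1a2 it was -1.92 in males and -0.84 in females (adjusted p = 0.412), and for Slc6a15 -1.05 in males and -0.04 in females (adjusted p = 0.480). In these 3 genes the 3 male wild-type rats lay above both female wild-type rats, while the male adenoma rats lay within the range of the female ones, except rat 3 in Slc1a1 at 5.48. The prefix of the sample number, 08 or 09, was also read as a possible batch, and the sign of all 15 called genes was the same within each prefix. For Slc7a5 the means were 10.35 in adenomas and 8.53 in wild-type pituitaries of prefix 08, and 10.12 and 8.12 with prefix 09. For Slc1a2 they were 5.69 in adenomas and 7.07 in wild-type pituitaries of prefix 08, and 5.78 and 7.29 with prefix 09. With 5 adenoma and 2 wild-type rats, prefix 08 alone called 3 of the 15, namely Slc1a2, Slc36a4 and Slc7a10, and 2.42% of all probe sets. Prefix 09 alone, with adenoma rats 6 to 9 and wild-type rats 3 to 5, called 11 of the 15. These were all but Slc1a3, Slc38a5, Slc6a15 and Slc6a17, beside 13.4% of all probe sets.

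Markers of other cell types also differed between adenomas and wild-type pituitaries. In whole tissue fewer cells of a type and less RNA per cell cannot be told apart. The counts of called markers stand beside 8.49% of all probe sets called as higher and 9.06% as lower. Macrophage markers were higher in adenomas, 8 of 12 called, led by Cd163 and Laptm5 (log2 fold changes of 1.46 and 1.39), and their mean level was 7.15 to 7.93 in adenoma rats and 6.56 to 7.22 in wild-type rats. In adenoma rats 2 and 5, where Slc7a7 was low, the macrophage mean was 7.68 and 7.75, within the range of the other adenoma rats. The part of macrophages in the Slc7a7 values was not tested. Of the folliculostellate and stem cell markers 4 of 9 were lower (Aldh1a1, Cpxm2, S100a1 and Sox2, -1.70 to -0.40) and 1, Krt8, higher, with a mean level of 7.34 to 8.08 in adenoma rats and 7.80 to 8.34 in wild-type rats. Among 7 markers of posterior lobe pituicytes and glia, Aqp4 was lower (-0.51) and Vim higher (1.39), Gfap was not called (0.24), and the mean level was 6.69 to 7.84 in adenoma rats and 6.85 to 7.27 in wild-type rats. Vim lost its call without adenoma rat 7 or wild-type rat 1, 3, 4 or 5 (log2 fold change of 1.20 to 1.53 without 1 rat), and Krt8 without wild-type rat 3 or 4 (0.86 to 1.17). The part of these support cells in the lower Slc1a2 and Slc1a3 was not tested. Of 11 endothelial markers, Flt1, Esam and Eng were higher (0.69, 0.55 and 0.50) and the mean level was 6.95 to 7.75 in adenoma rats and 7.07 to 7.45 in wild-type rats; Eng lost its call without adenoma rat 1 or wild-type rat 4 or 5 (0.45 to 0.58). Slc7a5 and Slc38a5 are also made by vessels of the brain, and the part of endothelial cells in their values was not tested. Among 12 pericyte and fibroblast markers 6 were higher and 1 lower (mean level 7.39 to 8.19 in adenoma rats, 7.31 to 7.72 in wild-type rats), and among 10 neuronal markers 1 was higher and 2 were lower (7.37 to 7.80 and 7.17 to 7.43). None of 3 red blood cell markers was called (6.66 to 8.32 in adenoma rats, 7.26 to 8.21 in wild-type rats). Of the markers of other hormone cells, 4 of 7 were lower for somatotrophs, lactotrophs and thyrotrophs (8.86 to 10.21 in adenoma rats, 10.74 to 11.11 in wild-type rats) and 4 of 5 for corticotrophs and melanotrophs (6.85 to 8.48 and 8.54 to 9.25). Which of the transporter genes these cells carry was not tested.

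Genes that use, make or sense amino acids were set beside the carriers. Their counts, here and below, stand beside 8.49% of all probe sets called as higher and 9.06% as lower. The aminoacyl-tRNA synthetases, which load amino acids onto tRNA, were higher in 12 of 19 and lower in none, with a median log2 fold change of 0.33 beside -0.03 over all probe sets. Qars1, Gars1, Wars1 and Sars1 led with 0.83, 0.66, 0.60 and 0.51 (limma adjusted p = 0.00215, 0.00119, 0.00164 and 0.00944). The mean level of the list was 9.25 to 9.51 in adenoma rats, above the 8.65 to 9.19 of wild-type rats, and 7 synthetases were called without wild-type rat 3 and 6 without wild-type rat 4. Within prefix 08 none of the synthetases was called, beside 2.42% of all probe sets called in either direction. Within prefix 09 there were 7, beside 13.4% of all probe sets. Of 16 genes of serine, glycine, proline, asparagine and glutamate metabolism 6 were higher and 1 lower (median 0.31). Mthfd2, the mitochondrial folate enzyme, was at 9.54 to 11.10 in adenoma rats and at 7.50 to 8.77 in wild-type rats (log2 fold change 2.38, limma adjusted p = 0.000103). Got1, the cytosolic aspartate aminotransferase, was at 10.62 to 12.71 in adenoma rats and at 9.00 to 10.09 in wild-type rats (2.17, adjusted p = 0.000394). Neither gene overlapped between the groups. The alanine aminotransferase Gpt2 was higher by 1.22 and the asparagine synthetase Asns by 0.94, also without overlap, while Phgdh, the first enzyme of serine synthesis, was lower (-0.38, adjusted p = 0.0219), a call lost without wild-type rat 4 or 5.

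The lists of amino acid shortage and of leucine sensing held calls in both directions, and their counts stand beside 8.49% of all probe sets called as higher and 9.06% as lower. Of 17 genes of ATF4 and the amino acid response, a list that holds sensing kinases besides ATF4 itself, 2 were higher and 3 lower (median 0.13). Beside Asns, the higher gene was Nupr1 (1.15, limma adjusted p = 0.0426), whose call was lost without any 1 of adenoma rats 1, 3, 5, 7 and 9 or of wild-type rats 1, 2, 4 and 5 (0.96 to 1.46). The lower genes were Eif2ak4, Ddit3 and Atf5. Eif2ak4 encodes GCN2, the kinase that senses uncharged tRNA, and was at 8.04 to 8.81 in adenoma rats and at 9.06 to 9.38 in wild-type rats, with no overlap (-0.90, adjusted p = 0.000297). Ddit3, which encodes CHOP, changed by -0.39. Of 23 genes of leucine sensing and mTORC1 3 were higher and 4 lower (median 0.02). Sesn1, of the sestrin family whose member sestrin 2 binds leucine and restrains mTORC1, was at 7.07 to 7.91 in adenoma rats and at 8.21 to 8.88 in wild-type rats (-1.10, adjusted p = 0.000244). Rragd, a Rag GTPase that recruits mTORC1 to the lysosome, was also lower (-0.66), while Lamtor5 and Lamtor2, subunits of the Ragulator anchor, were higher (0.62 and 0.45). Lamtor5 lost its call without wild-type rat 4 or 5 (0.46 to 0.73). The count of higher genes was 1 without wild-type rat 4 or 5 and 5 without wild-type rat 1, and that of lower genes 2 without adenoma rat 3, 5 or 7 or wild-type rat 3 or 4.

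Of 14 genes of glutathione synthesis and NRF2 targets 5 were higher and none was lower (median 0.22). Ggt7, of the gamma-glutamyltransferase family, was higher by 0.79 (limma adjusted p = 3.82e-05), Gpx4, which reduces lipid peroxides, by 0.75, Hmox1 by 0.67, Gclc by 0.37, and Nfe2l2, which encodes NRF2 itself, by 0.79 with a call lost without wild-type rat 4 or 5 (0.65 to 0.89). None of 5 genes of GABA synthesis and breakdown was called, and leaving out 1 rat gave at most 2, both lower, without wild-type rat 1. Of 19 amino acid and peptide carriers outside the name rule 3 were higher and 3 lower (median 0.03). The vesicular glutamate carrier Slc17a6 (VGLUT2) was at 9.64 to 10.47 in adenoma rats and at 6.15 to 8.27 in wild-type rats, a log2 fold change of 2.87 (limma adjusted p = 1.37e-05) with no overlap. Slc25a15, the mitochondrial ornithine carrier, was higher as well (0.57). Slc16a10 (TAT1), which lets aromatic amino acids out of cells, was at 5.97 to 7.99 in adenoma rats and at 7.45 to 8.54 in wild-type rats (-1.54, adjusted p = 0.00378), and Slc15a2 (PEPT2), a peptide carrier, was lower by 1.05 on the log2 scale (adjusted p = 0.00225).

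**Figure D5:**
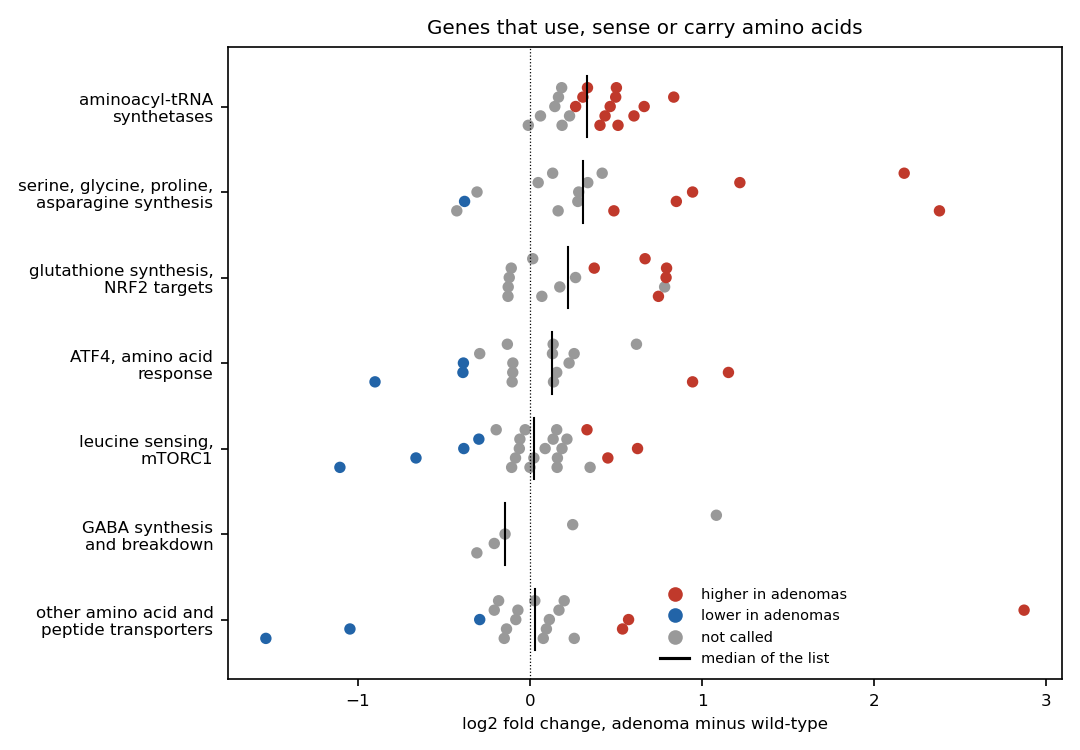
Log2 fold change, adenoma minus wild-type, of genes that use, sense or carry amino acids, 1 point per gene and 1 row per list, with the median of the list as a line; red points are called higher, blue points called lower and grey points not called. In the synthetase list 12 of 19 points are red and none is blue, while the rows of leucine sensing and of other carriers hold both colours around medians of 0.02 and 0.03.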

How the data were processed

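The deposited values are log2 expression per probe set, which the authors made with RMA in Affymetrix Expression Console (background correction, sketch-quantile normalization and median polish); no version is given in the sources used here. Such normalization can hide a shift shared by most genes and understates folds near background. The 16 lesions were averaged by the labels' sample number, read as the rat, to 9 adenoma values beside 5 wild-type values. Nothing else in the labels says how samples share animals. Symbols came from the platform annotation, where 15310 of 29214 probe sets have 1 symbol, 323 several and 13581 none. limma 3.58.1 in R 4.3.3 fitted 1 model per probe set (12 residual and 3.21 prior degrees of freedom), with Benjamini-Hochberg adjustment over all probe sets and calls at an adjusted p under 0.05. The scripts were tested on simulated data. Member genes and gene lists were chosen with earlier results of these data known. The text names all called members, those whose groups do not overlap, the 6 uncalled members with the highest mean, the 4 with the smallest adjusted p, both heavy chains, Cdkn1b, and up to 4 called genes of each list by size. Slc7a11, Slc1a5, Slc6a14, Slc7a6 and further list genes (Phgdh, Atf5, Gclc, Gfap) were named after their values were seen. Alternatives were other treatments of lesions, prefix, sex and age, other normalizations and filters, and each rat left out. The number of arrays limits precision.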

Additional observations from a re-analysis of the deposited data

Results flagged for a closer look

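Slc1a2, the astrocyte glutamate carrier, was at 6.37 in adenoma rat 6, the female of 8 months, far from the other adenoma rats, of which the nearest was at 5.81. The gap was 0.643 of the adenoma range. This value still lay below all 5 wild-type rats. Of 48 groups of values examined (24 genes in adenoma and in wild-type rats) this was the 1 with such a sample. Chance alone flags about 1 group in 20, so that 1 of 48 is no more than chance gives.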

How the results depend on the processing

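The main counts were 6 genes higher and 9 lower. They became 1 higher and 2 lower with prefix 08 alone. With the 2 adenoma rats of 7 or 8 months alone they were 0 and 0, beside 119 higher and 14 lower of all 29214 probe sets. With a fold over 2 they were 3 and 1, and with the methods' t-test and a fold over 2 they were 3 and 2. Prefix 09 alone gave 7 and 7, and why prefix 08 gave fewer was not tested. The other settings gave 5 to 9 higher and 7 to 12 lower, and leaving out 1 rat 5 to 7 and 7 to 10. The 9 and 12 came with the lesions as independent samples, beside 3562 higher and 4142 lower of all probe sets. No called gene changed sign. The age slopes gave 0 to 2 calls without 1 rat. The labels do not say that a shared replicate number pairs samples, and in adenomas the numbers count lesions, several of which shared a rat. Over 5 shared numbers the correlations were -0.05 to 0.20. With 3 wild-type rats closest to their own number, this does not settle whether the numbers pair. The replicate block was fitted on single lesions, not on averaged rats. It gave 7 higher and 7 lower, without Slc38a1, Slc3a1, Slc6a15 and Slc6a17. With the rats of 7 or 8 months alone the signs of uncalled genes turned in Slc38a2 (-0.079), Slc43a2 (0.000942) and Slc7a2 (-0.12), and Slc7a7 turned with prefix 08 alone (-0.39) and with the replicate block (-0.24). Cdkn1b was no longer called with prefix 08 (0.20) or 09 (0.46) alone, sex as a covariate (0.28), 7 or 8 months (0.34) or 10 to 12 months alone (0.32, chosen after seeing the data), the replicate block (0.22), quantile normalization (0.25) or array weights (0.32), and ran from 0.26 to 0.38 without 1 rat. The cause of these losses was not tested.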
